A study of Mus musculus with 10 samples.

Results

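The homeobox genes described here are 128 of the 48440 genes in an RNA-seq table of adult mouse cochlear hair cells, chosen by name: every gene symbol that matches the Hox, Lhx, Dlx, Pax, Pou, Nkx, Irx, Otx, Msx, Meis, Pbx, Zfhx, Cux, Satb, Prox, Hmx and Zeb families, Isl2 or the SINE-class genes other than Six2, without Pou4f3. The names used no measured value. Six2, Isl1 and other homeobox genes that these names do not match were not counted among the 128. The genes fall into 11 classes, the largest of which are the HOX clusters with 39 genes, the NK, DLX and MSX group with 26, the POU class with 14 and the TALE class with 13.

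The RNA came from hair cells of untreated mice of the CBA/J strain, whose hearing stays good well into adulthood, at an age given by the sample labels as 28 to 32 days, while the study's methods give a range with a higher upper end. Inner hair cells (IHCs), which pass the sound signal to the auditory nerve, gave 2 libraries, and outer hair cells (OHCs), the motile cells that boost sound-evoked motion in the cochlea, gave 3. Cells were told apart by shape under the microscope and picked with a separate suction pipette for each type, about 1000 cells per library, pooled over mice. The labels do not say which mice made up which library, so a p-value here speaks only of the variation among these 5 pools, part of which may be technical. In the labels, a leading number and an index sequence also differ between all IHC and all OHC libraries, and what the number stands for is not given. Any difference in preparation that goes with them cannot be told apart from cell type. Each library was read in 2 lanes of a sequencer, whose values were averaged, and levels are in RPKM, reads scaled to exon length in kilobases and to 1 M mapped reads.

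A homeodomain is a small DNA-binding fold that many regulators of embryonic patterning and cell identity share, and the proteins are sorted into classes by their homeodomain and by the domains beside it. In the inner ear, homeobox genes take part from the first otic placode onward, and Pou4f3 is needed for hair cells to survive. HOX proteins set position along the body axis, and TALE proteins (Pbx, Meis and Irx) bind DNA with them or on their own.

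The 5 libraries carried the markers of their labels. Slc17a8, the vesicular glutamate transporter of IHCs, had 48.7 and 51.7 RPKM in IHC libraries, against 2.96, 2.67 and 2.79 RPKM in OHC libraries, and Slc26a5, which encodes the OHC motor protein prestin, had 10.1 and 8.92 RPKM in IHC libraries, against 544, 553 and 550 RPKM in OHC libraries. All 7 IHC markers listed were higher in IHCs and all 10 OHC markers were higher in OHCs. Markers of other cells were present as well: the summed level of 7 erythrocyte genes was 343 to 356 RPKM in IHC libraries and 1553 to 1667 RPKM in OHC libraries, and that of 14 leukocyte genes was 8.59 to 8.80 RPKM in IHC libraries and 110 to 113 RPKM in OHC libraries. Genes of the stria vascularis (13) summed to 8.98 to 9.46 RPKM in IHC libraries and 233 to 238 RPKM in OHC libraries. Most of the sum in OHC libraries was Kcnj13 (mean 1.72 RPKM in IHCs and 207 RPKM in OHCs), and 8 of 10 stria genes tested were higher in OHCs. Genes of fibrocytes and mesenchyme (15) summed to 875 to 885 RPKM in IHC libraries and 881 to 910 RPKM in OHC libraries. The like sums of this list rest on Gsn (484 ± 7.52 RPKM in IHCs, SD, n = 2, and 30.9 ± 0.895 RPKM in OHCs, SD, n = 3), while 2 of its 15 genes tested were higher in IHCs and 9 were higher in OHCs, such as Pdgfra (1.67 ± 0.0817 RPKM in IHCs and 7.55 ± 0.148 RPKM in OHCs). Genes of Schwann cells and glia (10) summed to 81.5 to 81.7 RPKM in IHC libraries and 100.3 to 106 RPKM in OHC libraries, mostly from Mal (means of 68.5 and 84.0 RPKM). Supporting cell genes (26) summed to 8865 to 9102 RPKM in IHC libraries and 8032 to 8514 RPKM in OHC libraries, and several genes of this list are also found in hair cells. S100a1 made up most of both sums (means of 7182 RPKM in IHCs and 6738 RPKM in OHCs). The number of mapped reads by which the values were divided is not given and was inferred from the values and exon lengths. It came to 19987044 to 23083994 per library, fewer than the reads per sample that the study states for its sequencing. With this divisor, 3 reads, taken as the floor, correspond to 0.0650 to 0.0750 RPKM for a gene of 2 kb. This floor covers counting error only, because without molecular identifiers several reads can stem from 1 molecule.

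Most homeobox genes were not detected in either cell type. No read was found in any of the 10 lanes for 76 of the 128 genes (59.4%), against 6205 of 21683 protein-coding genes (28.6%). For these 76 genes the floor of 3 reads lay at 0.0147 to 0.172 RPKM per library, so that a level under it was not detectable at this depth. A mean level of 1 RPKM or more in IHCs or OHCs was reached by 15 homeobox genes (11.7%), against 49.8% of protein-coding genes, and 14 of the 15 reached it in IHCs and 15 in OHCs.

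Genes without reads were not spread evenly over the classes. All 39 HOX genes of the table, namely 11 of the Hoxa, 10 of the Hoxb, 9 of the Hoxc and 9 of the Hoxd cluster, had 0 reads in every lane of both cell types. Of the 9 PAX genes, regulators of organ formation that carry a paired domain, 8 had 0 reads, Pax2 and Pax8 of the early otic placode among them, and Pax6 had 0 and 2 reads in IHC libraries, against 6, 8 and 10 in OHC libraries. Of the NK, DLX and MSX group 17 of 26 had 0 reads, and of the LIM class 6 of 9. Reads were found for 12 of 13 TALE genes, 12 of 14 POU genes, 3 of 4 CUT genes and all of the zinc finger (5), PROS (2) and OTX (2) classes.

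**Figure D1:**
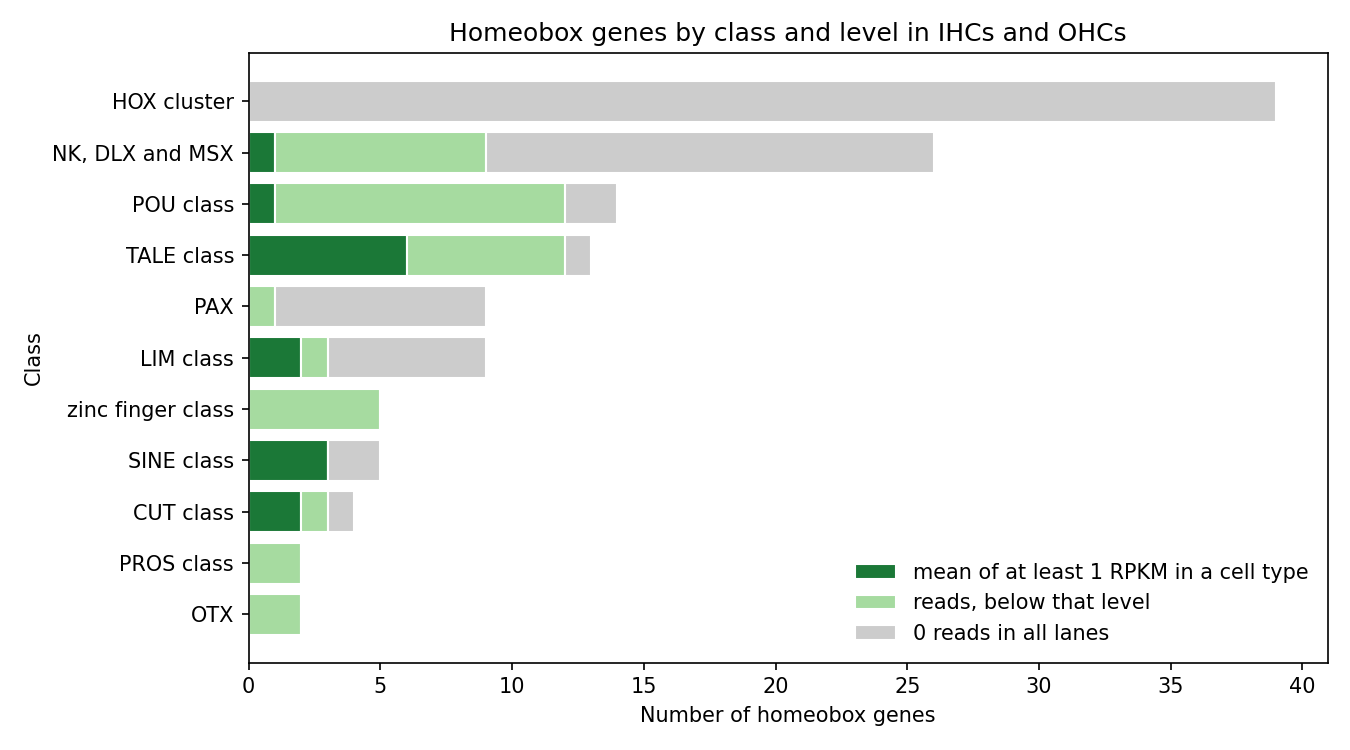
Number of homeobox genes in each class (horizontal axis, count of genes), split into those that averaged 1 RPKM or more in IHCs or OHCs, those with reads below that level and those with 0 reads in all 10 lanes. All 39 HOX genes had 0 reads, whereas 12 of 13 TALE genes had reads and 6 reached 1 RPKM.

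The summed level of the 128 genes was 134 and 131 RPKM in IHC libraries, against 141, 142 and 142 RPKM in OHC libraries. Few genes made up much of this sum. Lhx3, Isl2, Irx3, Irx5 and Irx2 together took 45.6% and 44.7% of it in IHC libraries, against 45.4%, 44.7% and 43.9% in OHC libraries, so that this share was alike in both types. The classes differed in which cell type had the larger sum. TALE genes summed to 60.9 and 58.5 RPKM in IHC libraries, against 41.3, 39.8 and 40.0 RPKM in OHC libraries, whereas LIM genes summed to 22.7 and 22.7 RPKM in IHC libraries, against 34.7, 35.6 and 34.7 RPKM in OHC libraries. Most of the LIM difference was Lhx3 (means of 9.58 RPKM in IHCs and 20.8 RPKM in OHCs). In the TALE class Irx3, Irx5 and Meis3 were higher in IHCs, while Irx2 was higher in OHCs. For both classes no IHC library lay within the range of the OHC libraries, which was also so for the POU class and the NK, DLX and MSX group.

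**Figure D2:**
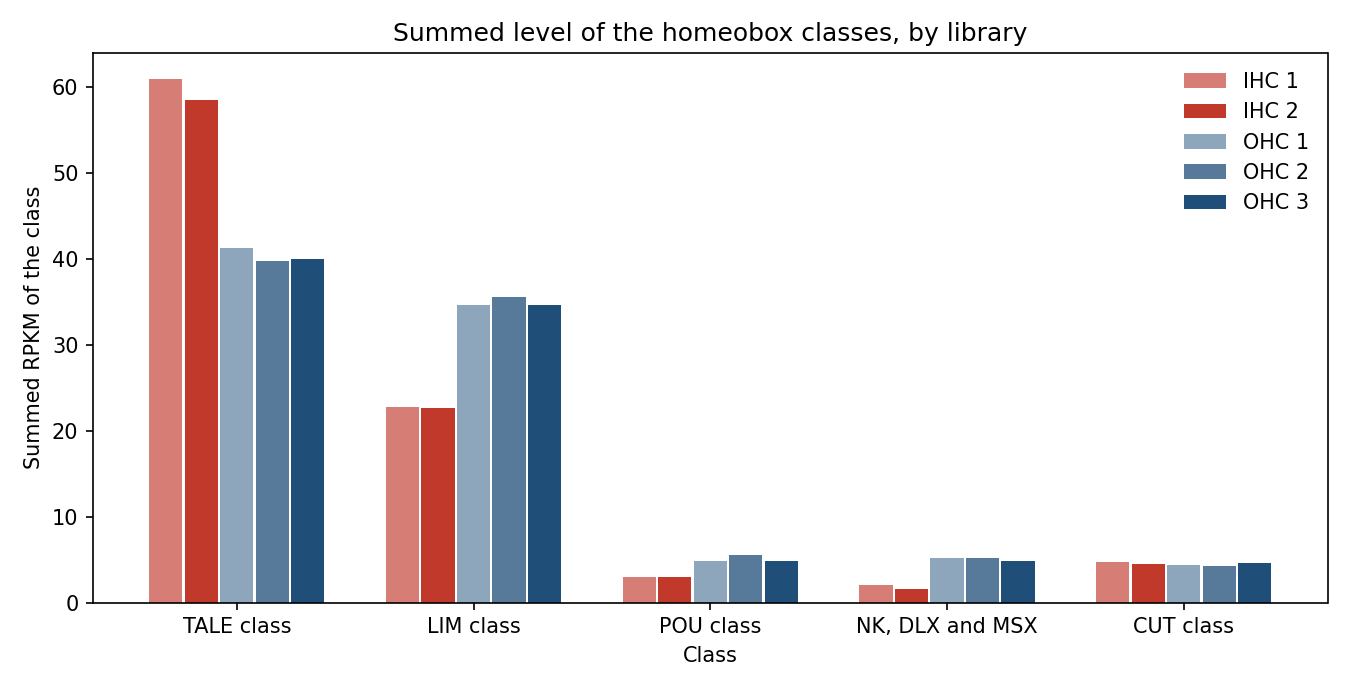
Summed RPKM (vertical axis) of 5 homeobox classes in each of the 2 IHC libraries (red) and 3 OHC libraries (blue). The TALE bars stood higher in IHC libraries (60.9 and 58.5 RPKM) and the LIM bars higher in OHC libraries (34.7, 35.6 and 34.7 RPKM).

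The order of the genes by level differed between the types. Among the genes given by name here, the order in IHCs was Irx3, Meis3, Irx5, Isl2, Lhx3, Irx2 and Six4, and in OHCs it was Lhx3, Isl2, Irx2, Irx3, Irx5, Six4 and Meis3. Neighbours in this order mostly did not overlap between libraries, but in IHCs Meis3 and Irx5 did, and so did Cux1, Six5 and Satb1 in turn. In OHCs the ranges of Irx3, Irx5 and Six4 overlapped in turn, as did those of Pou5f2 with Satb1 and of Cux1 with Six5.

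**Figure D3:**
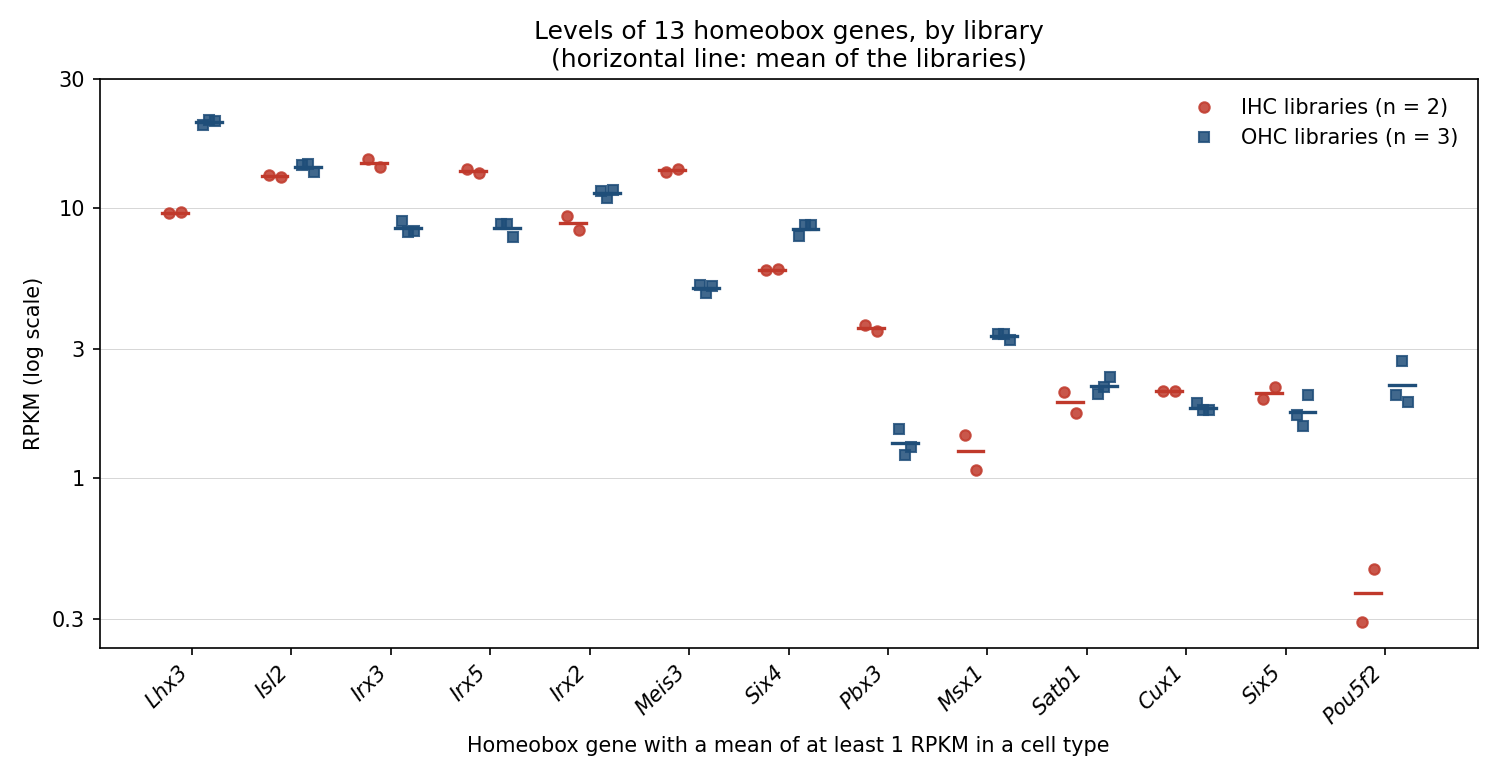
RPKM (vertical axis, log scale) of 13 homeobox genes that averaged 1 RPKM or more in a cell type, 1 point per library (2 IHC, 3 OHC), with a line at the mean of the libraries. Lhx3, Msx1 and Pou5f2 stood at least 2-fold higher in OHCs, and Meis3 and Pbx3 at least 2-fold higher in IHCs.

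IHCs and OHCs were compared by limma on log2(RPKM + 0.1) over the 16462 genes that reached 0.1 RPKM in 2 or more libraries, two-sided, with Benjamini-Hochberg adjustment over all of them and a threshold of 0.05. A log2 difference is IHC minus OHC on that scale, which understates the change of low genes, and a fold is the ratio of mean RPKM. Of the 36 homeobox genes that met this filter, 6 were higher in IHCs (16.7%, where 34.4% of all genes tested were) and 14 were higher in OHCs (38.9%, where 34.4% of all genes tested were), and 16 did not pass. A difference of at least 2-fold on this scale was found for 3 in IHCs (8.33% of the 36, where 11.1% of all genes tested were higher in IHCs by that much) and for 6 in OHCs (16.7% of the 36, where 16.0% of all genes tested were higher in OHCs by that much). The median log2 difference of the 36 genes was -0.20, against -0.0053 over all genes tested. Of the 36, 29 reached 0.1 RPKM in all 5 libraries, 6 in fewer than 2 IHC libraries (Meis1, Nkx6-1, Prox1, Pou2f3 and Pou3f2 among them) and 1 in fewer than 2 OHC libraries (Irx6). The other 16 genes with reads stayed below the filter, with at most 13 reads in a library, among them Dlx1, Dlx3, Dlx5, Hmx2, Irx1, Lhx9, Meis2, Nkx2-1, Otx2, Pax6, Pou2f2, Pou3f1, Pou4f1, Pou4f2 and Zeb2. An exact permutation test of 2 against 3 libraries cannot go under p = 0.1 and was not used.

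**Figure D4:**
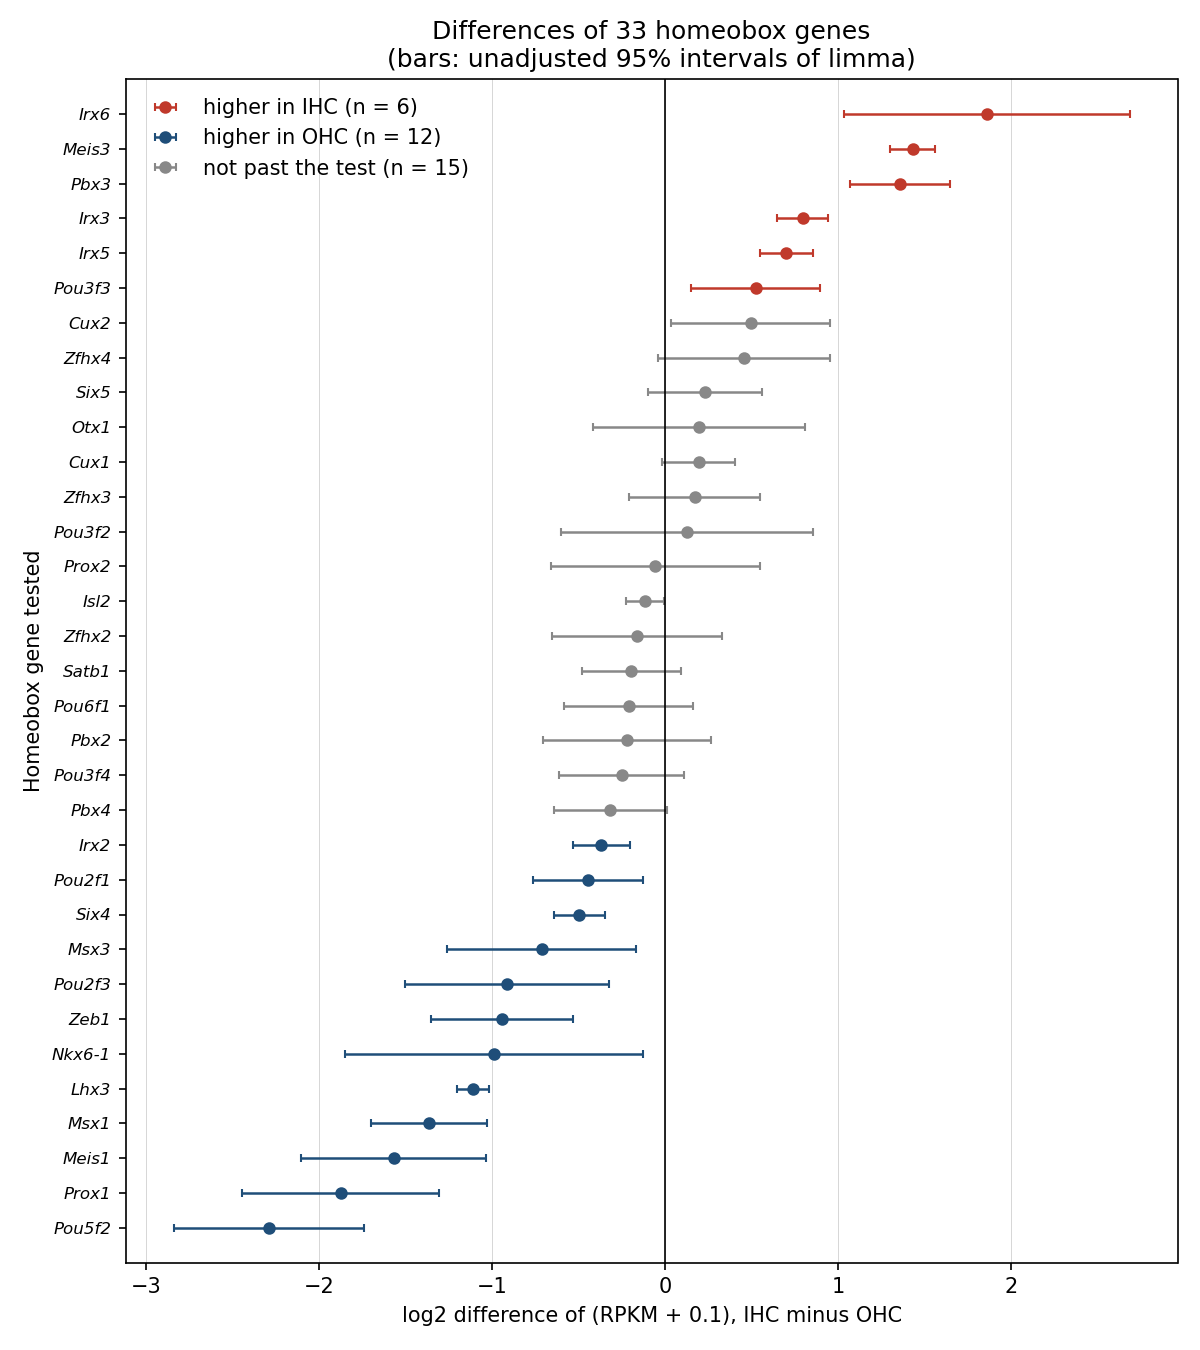
Log2 difference of RPKM + 0.1, IHC minus OHC (horizontal axis), of 33 homeobox genes tested, with unadjusted 95% intervals of limma, coloured by the call at an adjusted p under 0.05. Of the genes drawn, 6 lay to the right (higher in IHC), 12 to the left (higher in OHC) and 15 did not pass.

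Promoter sequences, 250 bases before to 50 after the start of transcription, were at hand for 88 of the 128 genes, and for 13 of the 16 that are described in full, in the GRCm38.p6 annotation of RefSeq. Those of Lhx3 and Meis3 are shown because these genes had the smallest adjusted p in either direction, and that of Six4 because it holds the only match to the motif of SINE-class proteins, in capitals, among the 13.
Lhx3, chr2:26208200-26208499, minus strand: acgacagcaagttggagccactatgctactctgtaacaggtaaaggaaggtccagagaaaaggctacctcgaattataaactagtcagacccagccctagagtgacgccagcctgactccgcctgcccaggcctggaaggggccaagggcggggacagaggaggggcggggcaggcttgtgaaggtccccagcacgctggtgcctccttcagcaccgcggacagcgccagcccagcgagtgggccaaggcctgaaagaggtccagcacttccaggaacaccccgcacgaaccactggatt
Meis3, chr7:16175145-16175444, plus strand: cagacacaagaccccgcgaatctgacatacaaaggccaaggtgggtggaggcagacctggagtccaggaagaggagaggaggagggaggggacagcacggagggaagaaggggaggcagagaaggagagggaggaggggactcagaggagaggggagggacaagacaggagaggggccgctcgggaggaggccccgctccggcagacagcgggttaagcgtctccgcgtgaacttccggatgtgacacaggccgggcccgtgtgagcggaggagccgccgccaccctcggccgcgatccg
Six4, chr12:73113196-73113495, minus strand: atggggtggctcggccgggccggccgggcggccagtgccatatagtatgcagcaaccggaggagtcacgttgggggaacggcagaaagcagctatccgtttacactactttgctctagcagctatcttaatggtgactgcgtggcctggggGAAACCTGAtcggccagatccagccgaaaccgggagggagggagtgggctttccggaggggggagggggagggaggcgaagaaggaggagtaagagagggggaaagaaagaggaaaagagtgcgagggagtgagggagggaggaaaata
Motifs for homeodomains (TAATTA), TALE proteins of the Meis group (TGACAG), Irx proteins (ACANNTGT) and SINE-class proteins (TCAGGTTTC) were searched on both strands. None of the motifs contains another, although matches of 2 motifs can share letters at their ends, and they were found in 5.32%, 19.2%, 7.38% and 0.430% of 26742 promoters, in that order. Among the 13, the promoter of Six4 held 1 match to the SINE-class motif, on the strand opposite to the one printed, and that of Six5 1 match to TGACAG, and no other match was found. A match is a run of letters and not a bound site. Promoters of the homeobox genes with at least 1 RPKM held 63.2% G and C and a median of 17 CpG (11 promoters), those of the genes with 0 reads 60.1% and 17 (51 promoters), and all promoters 53.7% and 7, so the active and the silent homeobox genes had the same median number of CpG.

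In the SINE class, whose proteins act with Eya coactivators in the developing ear, Six4 was higher in OHCs. Six4 (chromosome 12, 73099609 to 73113456) had 5.89 and 5.91 RPKM in IHC libraries, against 7.88, 8.64 and 8.61 RPKM in OHC libraries. The groups did not overlap, with a log2 difference of -0.50 ± 0.06 (SE) and an adjusted p of 0.000703. Six5, on chromosome 7, had 1.96 and 2.17 RPKM in IHC libraries, against 1.70, 1.55 and 2.01 RPKM in OHC libraries. Its groups overlapped, and the difference of 0.23 (95% interval -0.10 to 0.56) did not pass.

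In the LIM class, whose proteins carry a pair of LIM domains that bind cofactors, only Lhx3, Isl2 and Lhx9 had reads. Lhx3 (chromosome 2, 26200212 to 26208289), known from motor neurons and the pituitary and present in hair cells, had 9.54 and 9.62 RPKM in IHC libraries, against 20.3, 21.1 and 21.0 RPKM in OHC libraries. The levels within each type were close and the types lay far apart, 2.17-fold higher in OHCs, with a log2 difference of -1.11 ± 0.04 (SE) and an adjusted p of 5.5e-06. Isl2 (chromosome 9, 55538672 to 55546180), which with its relative Isl1 takes part in motor neuron identity, had 13.2 and 12.98 RPKM in IHC libraries, against 14.4, 14.5 and 13.6 RPKM in OHC libraries. The groups did not overlap, but the log2 difference of -0.12 (95% interval -0.23 to -0.01, before adjustment) had an adjusted p of 0.0597 and did not pass. Lhx9 had 3 and 10 reads in IHC libraries, against 0 reads in each OHC library, and was too low to be tested.

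Of 10 TALE genes tested, 5 were higher in IHCs and 2 were higher in OHCs, and 3 did not pass, where 34.4% of all genes tested were called in each direction. These 5 are among the 6 homeobox genes higher in IHCs. Meis3 (chromosome 7, 16175090 to 16186504), a partner of PBX and HOX proteins, had 13.6 and 14.0 RPKM in IHC libraries, against 5.16, 4.85 and 5.14 RPKM in OHC libraries. Its level was 2.73-fold higher in IHCs, with a log2 difference of 1.43 ± 0.05 (SE) and an adjusted p of 6.88e-06. Its relative Meis1 ran the other way at a far lower level, with 0.0726 and 0.0420 RPKM (17 and 9 reads) in IHC libraries, against 0.288, 0.398 and 0.418 RPKM (70, 88 and 88 reads) in OHC libraries. Meis1 was 6.43-fold higher in OHCs, with a log2 difference of -1.57 ± 0.22 (SE) and an adjusted p of 0.00124. It met the filter of 0.1 RPKM only through OHC libraries, so this p-value adds no separate support. Other genes overlap 18.3% of the exon bases of Meis1, and without strand their reads cannot be told apart from its own. Meis2 had at most 8 reads in a library and was not tested.

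Of the PBX genes, which encode the common DNA-binding partners of MEIS and HOX proteins, Pbx3 was higher in IHCs. It had 3.66 and 3.50 RPKM in IHC libraries, against 1.52, 1.22 and 1.30 RPKM in OHC libraries, a 2.67-fold higher level in IHCs with a log2 difference of 1.36 ± 0.12 (SE) and an adjusted p of 0.000179. Pbx2 and Pbx4 were below 1 RPKM in all libraries and did not pass.

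The Iroquois genes lie in a cluster on chromosome 8 and a cluster on chromosome 13. The genes tested differed in direction between the clusters, but on chromosome 13 only Irx2 was high enough to be tested. The chromosome 8 cluster holds Irx3 (91798525 to 91802067), Irx5 (92357625 to 92376286) and Irx6 (92674288 to 92680956), and all were higher in IHCs. Irx3 had 15.2 and 14.2 RPKM in IHC libraries, against 8.90, 8.14 and 8.22 RPKM in OHC libraries (log2 difference 0.79 ± 0.06 SE, adjusted p 0.000107). Irx5, 556 kb away, had 13.9 and 13.5 RPKM in IHC libraries, against 8.67, 8.69 and 7.82 RPKM in OHC libraries (log2 difference 0.70 ± 0.06 SE, adjusted p 0.000203). In ratios of means, Irx3 was 1.74-fold and Irx5 1.63-fold higher in IHCs. Irx6, a further 298 kb away, had 38 and 36 reads in IHC libraries, against 1, 6 and 9 reads in OHC libraries, which is 0.507 and 0.524 RPKM against 0.0129, 0.0846 and 0.133 RPKM. Irx6 was 6.70-fold higher in IHCs, with a log2 difference of 1.86 ± 0.33 (SE) and an adjusted p of 0.00367 (limma). It reached 0.1 RPKM in only 1 OHC library and would not have met the filter without the IHC libraries. Its p-value therefore adds no separate support. In the chromosome 13 cluster, Irx2 (72628820 to 72634198) ran the other way, with 9.30 and 8.25 RPKM in IHC libraries, against 11.5, 10.9 and 11.6 RPKM in OHC libraries. Its log2 difference was -0.37 ± 0.07 (SE), with an adjusted p of 0.00375, a 1.29-fold higher level in OHCs. Its neighbours Irx1 and Irx4 were silent or nearly so, Irx1 with 0 and 0 reads in IHC libraries, against 0, 2 and 2 in OHC libraries, and Irx4 with 0 reads in all. One lane result touches this cluster pair: the lanes of the first OHC library differed for Irx3 (7.76 and 10.03 RPKM, exact binomial test of reads, Benjamini-Hochberg adjusted p 0.0404), and Irx3 passed the comparison also with only the first of these lanes.

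In the NK, DLX and MSX group, the genes given here were higher in OHCs. Msx1, a repressor known from limb, tooth and skull development, had 1.44 and 1.07 RPKM in IHC libraries, against 3.40, 3.42 and 3.24 RPKM in OHC libraries, with a log2 difference of -1.37 ± 0.13 (SE) and an adjusted p of 0.000311, 2.68-fold higher in OHCs. Msx3 (0.496 and 0.417 RPKM in IHC libraries, against 0.662, 1.07 and 0.745 RPKM in OHC libraries) and Nkx6-1 (0 and 6 reads in IHC libraries, against 14, 8 and 14 reads in OHC libraries) passed with adjusted p values of 0.0302 and 0.0460, and both lost this under other settings. Nkx6-1 met the filter only through OHC libraries. The DLX genes, which act in craniofacial and vestibular development, were almost silent, and the highest, Dlx5, had 0 and 0 reads in IHC libraries, against 10, 0 and 4 in OHC libraries.

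The POU class, to which the hair cell regulator Pou4f3 belongs, was mostly low. Its highest gene in OHCs was Pou5f2, a relative of Pou5f1 known from the male germ line, with 0.290 and 0.458 RPKM (9 and 13 reads) in IHC libraries, against 2.02, 2.70 and 1.90 RPKM (65, 79 and 53 reads) in OHC libraries. The log2 difference was -2.29 ± 0.22 (SE), with an adjusted p of 0.000295, a 5.90-fold higher level in OHCs. Pou5f2 (chromosome 13, 78024902 to 78026295) lies wholly inside the gene Fam172a on the same strand, so its reads cannot be told apart from unspliced RNA of that gene. Fam172a had 17.2 and 17.2 RPKM in IHC libraries, against 23.1, 20.9 and 22.9 RPKM in OHC libraries, a log2 difference of -0.37 (adjusted p 0.00145), and its part in the level of Pou5f2 was not tested. The octamer factors Pou2f1 (0.585 and 0.627 RPKM in IHC libraries, against 0.846, 0.929 and 0.815 RPKM in OHC libraries) and Pou2f3 (7 and 4 reads in IHC libraries, against 12, 18 and 16 in OHC libraries) were higher in OHCs, and the neural factor Pou3f3 (0.910 and 0.755 RPKM in IHC libraries, against 0.561, 0.495 and 0.587 RPKM in OHC libraries) was higher in IHCs, with adjusted p values of 0.0228, 0.0162 and 0.0231. These are weak calls that other settings lost, and Cd247 overlaps 18.1% of the exon bases of Pou2f1. Pou3f4, a gene of the mesenchyme around the ear and itself on the fibrocyte list, did not pass, with 0.445 and 0.402 RPKM in IHC libraries, against 0.488, 0.569 and 0.512 RPKM in OHC libraries. The nearest relatives of Pou4f3 were nearly silent: Pou4f2 had 7 and 8 reads in IHC libraries, against 0 reads in each OHC library, and Pou4f1 had 1 read in all.

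The PROS class holds Prox1, a regulator of lymphatic vessels that in the organ of Corti is known from supporting cells. Prox1 had 0 and 0 reads in IHC libraries, against 69, 43 and 36 reads (0.356, 0.244 and 0.215 RPKM) in OHC libraries. The mean level in OHC libraries was 16.2 times the mean RPKM of the floor of 3 reads in IHC libraries. Prox1 met the filter of 0.1 RPKM only through OHC libraries, so its adjusted p of 0.000776 (limma) adds no separate support. In pools of cells, fewer cells that carry a transcript and less of it per cell cannot be told apart. Beside Prox1 and the other genes higher in OHCs stand the leukocyte, erythrocyte, stria and vessel markers, which were higher in OHC libraries for 8 of 12, 7 of 7, 8 of 10 and 5 of 5 genes tested. The same was found for 9 of 15 fibrocyte and mesenchyme genes and 5 of 8 Schwann cell and glia genes, with 2 and 0 higher in IHCs. Supporting cell genes were split: of 25 tested, 15 were higher in IHCs and 8 in OHCs. Among the 8 were Fgfr3 (mean 0.705 RPKM in IHCs and 32.2 RPKM in OHCs) and Tectb (0.878 and 26.5 RPKM). Among the 15 were Slc1a3 (131 and 7.67 RPKM) and Lgr6 (4.15 and 0.0988 RPKM), so the count does not speak for every supporting cell gene. Of the 12 vessel markers 5 were at 0 in both IHC libraries, Pecam1 and Acta2 among them. The part of such cells in the homeobox levels was not tested. Prox2 had groups that overlapped and did not pass.

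**Figure D5:**
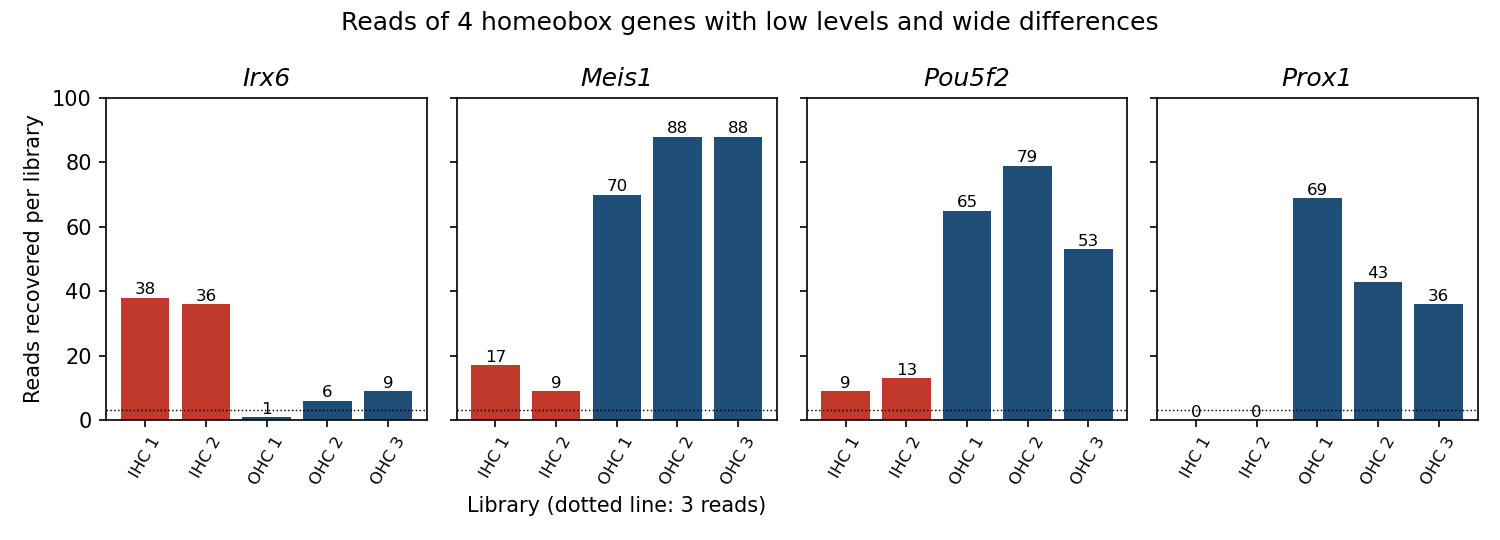
Reads recovered per library (vertical axis) of 4 homeobox genes with low levels and wide log2 differences, in 2 IHC libraries (red) and 3 OHC libraries (blue), with a dotted line at the floor of 3 reads. Prox1 had 0 reads in both IHC libraries, and Irx6 alone had more reads in IHC libraries than in OHC libraries.

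The CUT and zinc finger classes were low and mostly did not differ past the test. Cux1, a repressor found in most cells, had 2.09 and 2.09 RPKM in IHC libraries, against 1.90, 1.78 and 1.78 RPKM in OHC libraries, and its log2 difference of 0.19 (95% interval -0.02 to 0.40, adjusted p 0.0867) did not pass. Satb1, an organizer of chromatin, had 2.07 and 1.74 RPKM in IHC libraries, against 2.04, 2.17 and 2.36 RPKM in OHC libraries, with groups that overlapped and a difference of -0.19 (95% interval -0.48 to 0.09). Zeb1, a repressor of epithelial genes, was the one zinc finger gene past the test, with 25 and 21 reads in IHC libraries, against 74, 58 and 61 reads in OHC libraries (log2 difference -0.94 ± 0.17 SE, adjusted p 0.00345). Zeb1 had at most 0.317 RPKM in a library, and Zeb2 had at most 13 reads in one. As background, 34.4% of all genes tested were called in each direction. Of 14 epithelial genes that ZEB proteins repress in other epithelia, 6 were higher in IHCs and 4 were higher in OHCs. Epcam, the most abundant of them, had 247 ± 0.654 RPKM (SD, n = 2) in IHCs and 255 ± 2.14 RPKM (SD, n = 3) in OHCs and did not pass. Zfhx2, Zfhx3, Zfhx4 and Cux2 were below 1 RPKM and did not pass, nor did Otx1 of the OTX class.

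Partners of these classes were read from lists of known cofactors, with the same 34.4% of all genes tested called in each direction as background. Of 10 LIM-homeodomain partners, 6 were higher in IHCs and 3 in OHCs. Lmo1, a LIM-only protein that competes for the same cofactors, had 91.4 ± 0.374 RPKM (SD, n = 2) in IHCs and 31.1 ± 0.535 RPKM (SD, n = 3) in OHCs, and its relative Lmo3 had 2.46 ± 0.0411 RPKM in IHCs and 0.115 ± 0.0435 RPKM in OHCs (adjusted p 6.91e-07 and 4.36e-05), the opposite direction to Lhx3. Their relatives Lmo4 (13.7 ± 0.606 RPKM in IHCs and 15.4 ± 0.559 RPKM in OHCs) and Lmo2 (0.044 ± 0.033 and 0.322 ± 0.111 RPKM) went the same way as Lhx3 (adjusted p 0.0258 and 0.0056 by limma). Lmo2 met the filter only through OHC libraries. The LIM-only genes thus did not share one direction. Of 7 partners of SINE-class proteins, 3 were higher in IHCs and 2 in OHCs. The coactivator Eya1 had 13.3 ± 0.149 RPKM in IHCs and 10.4 ± 0.133 RPKM in OHCs (adjusted p 0.000545), whereas Eya4 had 7.24 ± 0.141 RPKM in IHCs and 12.3 ± 0.777 RPKM in OHCs (adjusted p 0.000167), so that the Eya genes did not share one direction. Of 4 further TALE genes outside the name rule, Pknox2 had 9.86 ± 0.124 RPKM in IHCs and 22.2 ± 0.248 RPKM in OHCs, the opposite direction to Meis3 and Pbx3 (adjusted p 3.51e-06), and Tgif1 had 4.29 ± 0.723 RPKM in IHCs and 2.51 ± 0.303 RPKM in OHCs (adjusted p 0.00527). Of 27 Polycomb and Trithorax genes, whose products keep HOX clusters silent or active, all had reads. Of these, 5 were higher in IHCs, 8 were higher in OHCs, and 14 did not pass. Of 8 Groucho and CtBP corepressors tested, 5 were higher in IHCs and 2 in OHCs.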

How the data were processed

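Per the labels and the study's methods, RNA of about 1000 picked cells per library was amplified with a kit that does not keep strand (SMARTer in the labels, SMART-Seq in the methods) and read from both ends on a HiSeq. The authors mapped reads to GRCm38 (mm10) with CLC Genomics Workbench, counted them with HTSeq and deposited RPKM per gene and lane. Versions are not given in the sources used here. No labelled column was left unused.

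Lanes of a library were averaged (2 against 3 libraries). Genes that reached 0.1 RPKM in 2 or more libraries (16462) were fitted as log2(RPKM + 0.1) with limma 3.58.1 (variance trend, R 4.3.3), contrast IHC minus OHC, two-sided, Benjamini-Hochberg, threshold 0.05. The fit was also run on simulated counts, with a variation between libraries set in advance and without genes of few reads. The outcome is not given here and serves as no support for the calls.

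Reads were recovered as RPKM times exon length (GENCODE M21, GRCm38) times the divisor of the lane, which gave whole reads within 0.01 for 69.8% to 70.6% of values. The divisor was inferred by taking the commonest small product of RPKM and exon length as 1 read. For 5634 of 19961 detected genes (13 homeobox genes) another length, up to 120000 bases, was searched until all lanes were whole within 1e-05 reads. Whether a pair counts as 1 or 2 is not known, and reads served only for floors, low counts, the lanes and the voom alternative. Lanes of a library were compared by exact binomial tests of genes with at least 20 reads. In 2 IHC libraries and 1 OHC library 793, 791 and 845 genes differed between lanes, in the other OHC libraries 51 and 36. Homeobox genes that differed were Zfhx2 in IHC 1 and Irx3 in OHC 1.

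Named in full were genes that averaged 1 RPKM or more in a cell type and other homeobox genes past the test by at least 2-fold (13 and 3 given). Some of the 128 genes are not reported here. Of cofactor lists at most 4 past the test and the most abundant were eligible, and fewer are named. Lmo4 is given beside them as a relative of Lmo1. Genes, lists and alternatives were chosen with earlier results of these data known. Shared sequence or overlap with other genes touched at most 6.2% of the exon bases of the 15 genes. Alternatives were other pseudocounts (0.01 and 1), filters, scalings and variance models, single lanes, a set of 7 lanes, a replicate block, voom, and leaving out each library. The set of 7 lanes left out the second lanes of IHC 1, IHC 2 and OHC 1, whose lanes differed for the most genes. The lane test does not say which lane of a library is the unusual one, and the labels name no difference in processing. Python 3.11.15, pandas 2.3.3, numpy 2.4.6, scipy 1.17.1 and matplotlib 3.10.9 were used.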

Additional observations from a re-analysis of the deposited data

How the results depend on the processing

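Across 17 alternatives, 4 to 9 homeobox genes were higher in IHCs (6 in the comparison reported) and 6 to 15 in OHCs (14). The count in OHCs left the range of 1.5 times in 1 setting: with a filter of at least 1 RPKM, 6 were higher in OHCs, where only 15 homeobox genes were tested. Leaving out 1 library in turn gave 5 to 6 genes higher in IHCs and 11 to 13 in OHCs. Of the 16 genes described in full, the 12 past the test kept their direction and their side of the threshold in every alternative that tested them. Isl2 passed, higher in OHCs, under median-of-ratios scaling, under quantile normalization and without OHC replicate 3. Cux1 passed, higher in IHCs, under quantile normalization, limma without the trend and voom. Of genes not described in full, Cux2, Zfhx4 and Pou4f2 gained calls in IHCs and Pbx4 in OHCs under at least 1 alternative. Calls of Nkx6-1, Msx3, Pou2f1 and Pou2f3 (higher in OHCs) and of Pou3f3 (higher in IHCs) were lost under at least 1 library left out and under other settings, and the cause was not tested. With a detection level of 0.5 RPKM, 24 homeobox genes were detected, against 15 at 1 RPKM and 15 at 2 RPKM. The replicate number as a block left 5 genes higher in IHCs (Pou3f3 lost) and 10 in OHCs (Msx3, Nkx6-1, Pou2f1 and Pou2f3 lost). The labels do not say whether the numbers pair the libraries. Deviations of same-numbered libraries from their group means correlated at 0.0125 and -0.0197. A low correlation cannot show that the libraries were unpaired, so pairing remains unknown. With only the set of 7 lanes, 5 were higher in IHCs and 14 in OHCs. Depth limits the low genes, where 3 reads are the floor, and 2 against 3 libraries limit the precision of every difference.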

Other observations

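Some homeobox genes outside the name rule stood above nearly all of the 128. Of 92 such genes in the table, 47 had 0 reads, 31 were tested, 11 were higher in IHCs and 9 in OHCs, where 34.4% of all genes tested were called in each direction. Those named next are examples and do not stand for the directions of the list. Six2, of the SINE class, had 8.83 and 10.2 RPKM in IHC libraries, against 127, 120 and 119 RPKM in OHC libraries (adjusted p 7.02e-07 by limma), 12.8-fold higher in OHCs. Isl1, the relative of Isl2, had 23.7 and 22.8 RPKM in IHC libraries, against 90.7, 94.9 and 96.3 RPKM in OHC libraries, 4.05-fold higher in OHCs, whereas Isl2 did not pass. Emx2, which sets hair bundle orientation in other inner ear organs, had 1.45 and 1.57 RPKM in IHC libraries, against 6.39, 6.04 and 6.38 RPKM in OHC libraries. Pou4f3 had 111 and 111 RPKM in IHC libraries, against 89.6, 83.0 and 87.5 RPKM in OHC libraries.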
